A study of Mus musculus with 6 samples.

Results

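The TNF superfamily pairs trimeric, mostly membrane-bound ligands with receptors that carry cysteine-rich repeats outside the cell. Its members were taken from a table of read counts for Kupffer cells, macrophages that reside in the liver sinusoids. They were the rows whose symbol begins with Tnfsf or Tnfrsf followed by a digit, together with Lta, Ltb, Ltbr, Fas, Fasl, Cd27, Cd70, Ngfr and Edar, and at least 10 counts over all libraries were required. This rule found 38 of the 15458 genes in the table. Of these, 14 were ligands, 6 were receptors with a death domain, 14 were receptors that bind TRAF adaptors and 4 were decoy or soluble receptors. Cd70 and Edar had no row in these counts and so were not analysed here. The members closest to the minimum were Tnfsf15 with 16 counts in all and Tnfsf4 with 19, and 0 rows with a matching name fell under it. Tnf itself, Cd40 and Relt belong to the family but fall outside the symbol rule, and they are described among the signalling genes.

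The cells were sorted by flow cytometry from livers of wild-type C57BL/6 mice at day 18 after implantation of Hepa1-6, a mouse hepatoma line. All mice of both groups carried these tumours. In 3 libraries, called KC_EV, the tumour cells carried an empty vector, and in 3 libraries, called KC_Epo, they overexpressed erythropoietin (Epo), the hormone that drives red cell production. The sources used here do not give the promoter behind the overexpression, the number of clones, the age of the mice or whether mice were pooled, and no group without a tumour was analysed. The question was how the Kupffer cells of Epo-overexpressing tumours differ from those of control tumours. The labels do not say whether each library came from a separate animal, so the p-values reflect only how far these libraries spread, which may be technical.

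Death domain receptors recruit FADD or TRADD and can activate caspases or the kinases of necroptosis. TRAF-binding receptors assemble ubiquitin ligases that activate NF-kB, through the canonical route by way of IKK or the alternative route by way of NIK. Decoy and soluble receptors bind ligand without a death or TRAF signal of their own. In the liver, Kupffer cells are a known source of TNF, and TRAIL and Fas ligand are studied for their killing of liver and tumour cells.

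Library totals ran from 23201076 to 33280754 counts, and levels are given as CPM, counts scaled to library size with TMM factors. All 12 Kupffer cell markers were detected, among them Clec4f and Timd4. Their summed level was 32710 to 35320 CPM in KC_EV and 48250 to 54920 in KC_Epo, with 9 of 12 higher and 1 lower, the lower one being Adgre1. Markers of other cells moved as well. Summed sinusoidal endothelial markers were 4562 to 5396 CPM in KC_EV and 2300 to 3039 in KC_Epo (9 of 12 lower, 1 higher). Hepatocyte markers were 2702 to 3371 and 6246 to 21670 CPM (9 of 12 higher), and erythroid markers were 33.5 to 43.1 and 606 to 1109 CPM (7 of 7 tested higher). Library KC_EV 1 stood apart by its low neutrophil markers, whose sums ran from 17.5 to 258.9 CPM over the KC_EV libraries, and KC_Epo 1 by its high hepatocyte markers. The part of these markers in the results was not tested. In such bulk samples, fewer cells of a type and less RNA per cell cannot be told apart.

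The 38 members spanned more than 3 orders of magnitude, from Tnfrsf1b and Tnfrsf1a at 234 CPM or more in each library to Tnfsf15 under 0.2 CPM. Of the members, 34 passed the filter on low counts. The other 4, Tnfsf11, Tnfsf4, Tnfsf15 and Tnfrsf19, were not tested. By edgeR's quasi-likelihood test with an adjusted p under 0.05, 5 of the 34 members were higher in KC_Epo and 7 were lower. That is 35.3% of tested members, beside 32.3% of all 13120 tested genes. By direction, 14.7% of members were higher and 20.6% lower, beside 16.9% and 15.4% of all genes. The median log2 fold change was -0.23 for the members and -0.00 for all genes. In 17 of the 34 members (50%) the groups did not overlap, beside 48.3% of all genes. KC_Epo lay above KC_EV in 8 of them, beside 24.1% of all genes, and below in 9, beside 24.2%. The count of members called is therefore close to the background. Without KC_EV 2 it was 6 (17.1% of members, beside 21.9% of all genes in the same fit), without KC_EV 3 it was 8 (22.9%, beside 22.6%), and without KC_Epo 3 it was 9 (25%, beside 20.3%). Without KC_EV 1 and KC_Epo 1 together it was 12 (35.3%, beside 36.9%). The lower members alone numbered 2 without KC_EV 2 (5.71%, beside 10.2% of all genes). They numbered 4 without KC_EV 3 (11.4%, beside 10.5%) and 4 without KC_Epo 3 (11.1%, beside 9.31%).

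**Figure D1:**
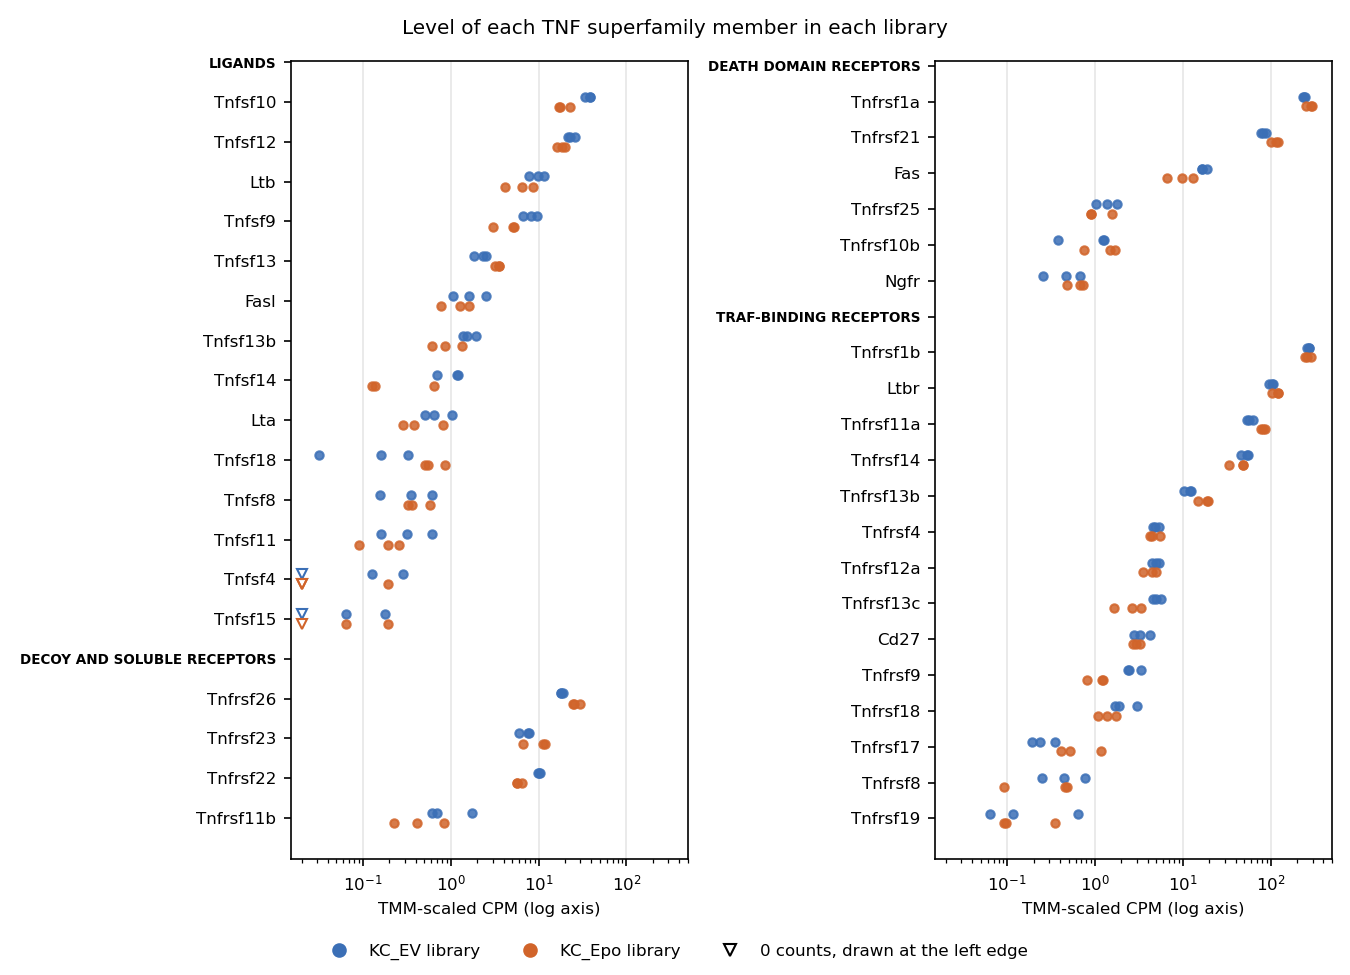
Level of each of the 38 members in each library, on a log axis of TMM-scaled CPM, with KC_EV libraries in blue and KC_Epo libraries in orange; triangles at the left edge mark 0 counts. Tnfrsf1a and Tnfrsf1b lie at 234 CPM or more in all 6 libraries, while Tnfsf4 and Tnfsf15 have libraries with 0 counts.

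Of the 12 called members, 10 were among the more abundant. Of the 15 members with a mean of at least 5 CPM over the 6 libraries, 10 were called (5 higher, 5 lower; 66.7%), beside 35% of all genes at that level. Of the 19 below it, 2 were called (10.5%), beside 23%. The median standard error of the log2 fold change was 0.12 in the upper class and 0.44 in the lower.

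**Figure D2:**
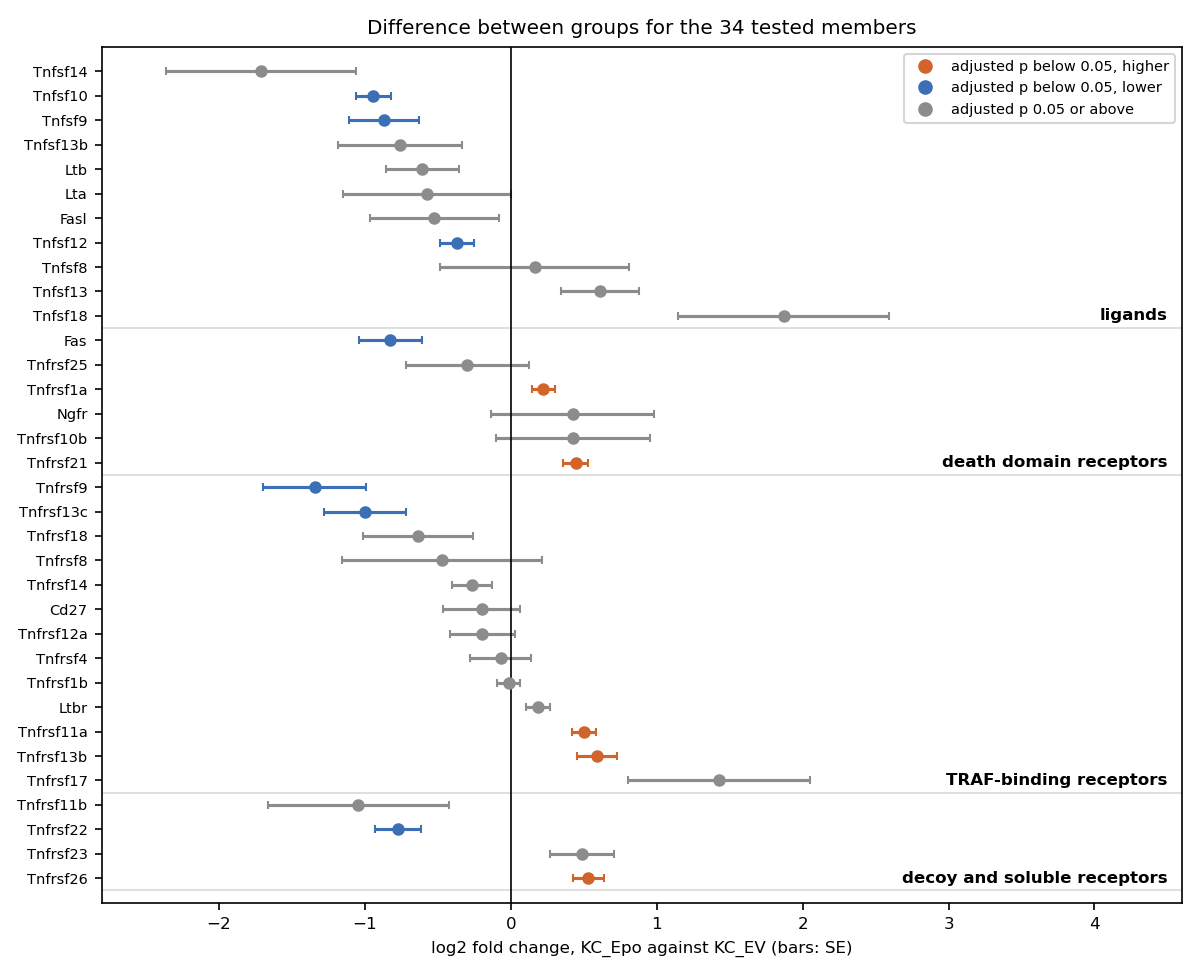
Log2 fold change of KC_Epo against KC_EV for the 34 tested members, grouped by role; points are estimates, bars are standard errors, and colour marks an adjusted p below 0.05. The 3 called ligands, Tnfsf10, Tnfsf9 and Tnfsf12, lie left of 0, and the called receptors lie on both sides.

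Among the ligands, 0 of 11 tested were higher, beside 16.9% of all genes, and 3 were lower (27.3%, beside 15.4%), with a median log2 fold change of -0.57. Tnfsf10 is TRAIL, which triggers apoptosis through its death receptor. It measured 34.1, 38.7 and 38.2 CPM in the KC_EV libraries and 22.8, 17.8 and 17.1 CPM in the KC_Epo libraries. All 3 KC_Epo libraries lay below every KC_EV library, and Tnfsf10 fell 1.92-fold (log2 fold change -0.94 ± 0.12 SE, adjusted p = 0.000113). Among the members this was the smallest adjusted p. The summed level of all 14 ligands was 76.6, 95.3 and 88.7 in KC_EV and 59.9, 55.3 and 53.1 CPM in KC_Epo, a sum in which Tnfsf10 and Tnfsf12 hold the largest shares. Of the sinusoidal endothelial markers, 9 of 12 were lower, to unequal degrees, and 1, Cdh5, was higher (log2 fold change 0.25, adjusted p = 0.0139). Stab2 fell little (-0.27, adjusted p = 0.0436) and Clec4g, a lectin of sinusoidal lining cells, fell further (-1.725, adjusted p = 0.00891). Pecam1 (-0.17, adjusted p = 0.082) and Egfl7 (-1.35, adjusted p = 0.0682) did not pass the test. The part of endothelial cells in the ligand values was not tested.

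Tnfsf9, the ligand of the costimulatory receptor Tnfrsf9, measured 6.59, 9.56 and 8.23 in KC_EV, against 5.11, 3.06 and 5.24 CPM in KC_Epo. The groups did not overlap, although KC_EV 1 lay near KC_Epo 3. Tnfsf9 fell 1.82-fold (log2 fold change -0.87 ± 0.24, adjusted p = 0.0158). The call was lost without KC_EV 2 (-0.73, adjusted p = 0.0797) or KC_EV 3 (-0.86, adjusted p = 0.0531).

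Tnfsf12 is TWEAK, a cytokine that acts through Tnfrsf12a on growth and repair. It measured 21.9, 26.0 and 22.7 in KC_EV, against 20.1, 18.3 and 16.3 CPM in KC_Epo. The groups did not overlap, with KC_Epo 1 close to KC_EV 1. Tnfsf12 fell 1.29-fold (-0.37 ± 0.12, adjusted p = 0.0304). The call was lost without KC_EV 2 (-0.29, adjusted p = 0.14), KC_EV 3 (-0.39, adjusted p = 0.0629), KC_Epo 2 (-0.36, adjusted p = 0.0566) or KC_Epo 3 (-0.28, adjusted p = 0.145). Tnfsf12 and its neighbour Tnfsf13 share a read-through gene, Tnfsfm13, on the same strand, which covers 50.7% of the exon length of Tnfsf12 and 60.0% of that of Tnfsf13. The sources used here do not say how the authors' counting split these reads, so both values are uncertain. Tnfsfm13 itself rose from 1.53 ± 0.32 to 3.58 ± 0.06 CPM (SD, n = 3 each; log2 fold change 1.23 ± 0.29, adjusted p = 0.00766).

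Ltb, which with Lta forms the membrane lymphotoxin that binds Ltbr, measured 7.82, 11.6 and 9.97 in KC_EV, against 4.18, 8.56 and 6.56 CPM in KC_Epo. The groups overlapped, since KC_Epo 2 lay above KC_EV 1. Its log2 fold change was -0.61 ± 0.25 (adjusted p = 0.088), and it passed the test without KC_Epo 2 (-0.87, adjusted p = 0.0131). Of the T and NK cell markers, whose cells make lymphotoxin, 3 of 15 were lower (Lck, Cd2 and Eomes) and 0 higher. Their sum was 112 to 133 CPM in KC_EV and 87.8 to 121.7 CPM in KC_Epo, no marker was at 0, and their part in the Ltb values was not tested.

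The remaining tested ligands were below 4 CPM. Tnfsf14, or LIGHT, which binds Ltbr and Tnfrsf14, had 22, 38 and 40 counts in KC_EV and 4, 20 and 3 in KC_Epo. All KC_Epo libraries lay below KC_EV, with KC_Epo 2 well above the other two. Its log2 fold change was -1.71 ± 0.65 (adjusted p = 0.0627), and it passed the test without KC_Epo 2 (-2.91, adjusted p = 0.00815). Tnfsf18, the ligand of Tnfrsf18, had 1, 5 and 11 counts in KC_EV and 27, 16 and 12 in KC_Epo (1.87 ± 0.72, adjusted p = 0.066). Fasl, the ligand of Fas (24 to 79 counts a library), had a log2 fold change of -0.52 ± 0.44 (adjusted p = 0.392), Lta (9 to 32 counts) one of -0.57 ± 0.58 (adjusted p = 0.48) and Tnfsf8, the ligand of Tnfrsf8 (5 to 21 counts), one of 0.16 ± 0.65 (adjusted p = 0.868). In these 3 ligands the groups overlapped. Of the untested ligands, Tnfsf11, the osteoclast factor RANKL, had 36 counts over the KC_EV libraries and 16 over the KC_Epo libraries. Tnfsf4 had 13 and 6, and Tnfsf15 had 8 and 8.

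Among the death domain receptors, 2 of 6 were higher (33.3%, beside 16.9% of all genes) and 1 was lower (16.7%, beside 15.4%). Tnfrsf1a, the main TNF receptor of most cells, measured 234, 241 and 244 in KC_EV and 255, 299 and 287 CPM in KC_Epo. All KC_Epo libraries lay above every KC_EV library, and Tnfrsf1a rose 1.17-fold (log2 fold change 0.22 ± 0.08, adjusted p = 0.0399). This call depended on single libraries: it was lost without KC_EV 1 (0.21, adjusted p = 0.0844), KC_EV 2 (0.23, adjusted p = 0.107), KC_EV 3 (0.24, adjusted p = 0.0935), KC_Epo 2 (0.18, adjusted p = 0.0985) or KC_Epo 3 (0.22, adjusted p = 0.137). It was also lost with upper-quartile factors (0.16, adjusted p = 0.124), where the median of all genes was -0.067, and with library sizes in place of TMM factors (0.06, adjusted p = 0.497), where it was -0.16.

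Tnfrsf21, the death receptor known as DR6, measured 88.4, 81.2 and 77.0 in KC_EV, against 100.6, 121.5 and 113.8 CPM in KC_Epo. The KC_Epo libraries were all above the KC_EV libraries, and Tnfrsf21 rose 1.36-fold (0.45 ± 0.09, adjusted p = 0.002). Markers of Kupffer cells, 9 of 12 of them higher, moved the same way as Tnfrsf1a and Tnfrsf21, and their part in these values was not tested.

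Fas, whose ligand triggers apoptosis by way of FADD and caspase 8, moved opposite to these receptors. It measured 16.5, 18.9 and 16.6 in KC_EV, against 13.1, 6.6 and 9.71 CPM in KC_Epo. The groups did not overlap, and KC_Epo 1 lay closest to KC_EV. Fas fell 1.77-fold (-0.82 ± 0.21, adjusted p = 0.0164). The call was lost without KC_EV 2 (-0.76, adjusted p = 0.0647), KC_EV 3 (-0.85, adjusted p = 0.0511) or KC_Epo 3 (-0.81, adjusted p = 0.0769). Endothelial markers (9 of 12 lower, 1 higher) and dendritic cell markers (6 of 10 lower, 1 higher) moved with the groups as well, and their part in the Fas values was not tested.

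The other 3 death domain receptors were under 2 CPM and their groups overlapped. Tnfrsf10b, the mouse TRAIL receptor (13 to 46 counts a library), had a log2 fold change of 0.43 ± 0.53 (adjusted p = 0.572). Tnfrsf25, which binds Tnfsf15 (20 to 55 counts), had one of -0.30 ± 0.42 (adjusted p = 0.626), and Ngfr, the low-affinity neurotrophin receptor (8 to 23 counts), one of 0.42 ± 0.56 (adjusted p = 0.594).

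**Figure D3:**
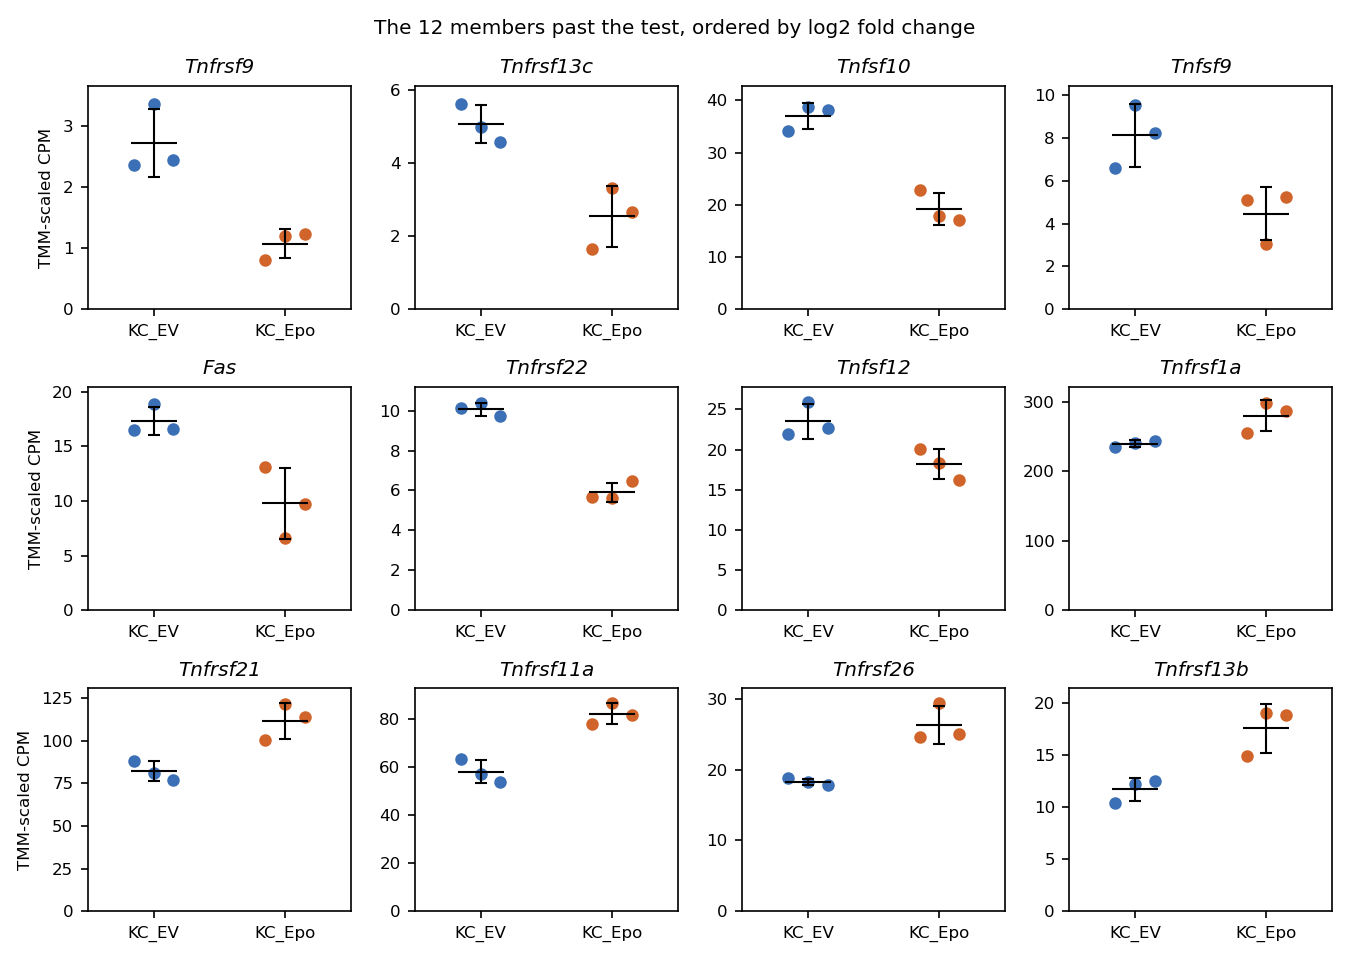
TMM-scaled CPM of the 12 members past the test in each of the 3 KC_EV and 3 KC_Epo libraries; points are libraries, horizontal lines are means and bars are SD, and each vertical axis starts at 0. The groups do not overlap in any of the 12 panels, with Tnfrsf9 showing the largest fold difference and Tnfrsf1a the smallest.

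Of the TRAF-binding receptors, 2 of 13 tested were higher (15.4%, beside 16.9% of all genes) and 2 lower (15.4%, the same share as of all genes). The higher ones were Tnfrsf11a and Tnfrsf13b. Tnfrsf11a, known as RANK, signals through TRAF6 in osteoclasts and other macrophages. It measured 63.3, 57.1 and 53.5 in KC_EV and 77.7, 86.6 and 81.7 CPM in KC_Epo. All KC_Epo libraries lay above KC_EV, and it rose 1.41-fold (0.50 ± 0.08, adjusted p = 0.000738). Its ligand Tnfsf11 was near the detection limit, as given above.

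Tnfrsf9, the costimulatory receptor for Tnfsf9, measured 2.36, 3.36 and 2.45 in KC_EV and 0.803, 1.19 and 1.23 CPM in KC_Epo, from 263 and 89 counts in all. The groups lay well apart. Tnfrsf9 fell 2.54-fold (-1.34 ± 0.35, adjusted p = 0.0127) and was the only one of the 12 called members to change over 2-fold. Over 2-fold changes past the test made up 6.68% of all genes in the lower direction and 2.72% in the higher. The call was lost without KC_EV 2 (-1.16, adjusted p = 0.071). Of the dendritic cell markers, 6 of 10 were lower and 1, Clec10a, was higher (log2 fold change 0.68, adjusted p = 0.00024). Clec9a stayed level, with every library between 66.4 and 70.7 CPM (0.025, adjusted p = 0.811). Summed over the list, these markers ran from 217.8 to 242.3 CPM among KC_EV libraries and from 202.2 to 208.1 among KC_Epo libraries. Xcr1, the marker that fell furthest, measured 11, 9.94 and 10.5 in KC_EV and 1.48, 0.965 and 1.46 CPM in KC_Epo. No dendritic or T and NK cell marker was at 0 in any library, and their part in the Tnfrsf9 and Tnfsf9 values was not tested.

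The stretch before the transcription start is shown for 4 called members whose changes differ in direction: Tnfrsf9, Fas and Tnfsf10, which fell, and Tnfrsf13b, which rose. RefSeq windows of 250 bases before the start (GRCm38.p6) were matched for 31 members, with 35 windows in all. The called members Tnfsf12, Tnfsf9, Tnfrsf22 and Tnfrsf26 had no matched window and were not searched. The letters searched on both strands were GGGA and CC with any 4 bases between them, a form of the NF-kB site, GAGGAAGT, a form of the PU.1 site, TGANTCA for AP-1, TGACGTCA for the cyclic AMP response element and TTCNNNGAA for STAT factors. Matches are in capitals, and no 2 of them overlap in the windows shown. The windows are chr4:150927749-150927998, chr19:34290409-34290658, chr3:27316827-27317076 and chr11:61126505-61126754, all on the plus strand.
Tnfrsf9: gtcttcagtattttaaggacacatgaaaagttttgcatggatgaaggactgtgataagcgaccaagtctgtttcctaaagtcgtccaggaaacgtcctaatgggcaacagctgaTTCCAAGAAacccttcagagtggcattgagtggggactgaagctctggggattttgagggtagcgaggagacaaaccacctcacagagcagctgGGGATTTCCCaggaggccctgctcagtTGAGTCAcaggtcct
Fas: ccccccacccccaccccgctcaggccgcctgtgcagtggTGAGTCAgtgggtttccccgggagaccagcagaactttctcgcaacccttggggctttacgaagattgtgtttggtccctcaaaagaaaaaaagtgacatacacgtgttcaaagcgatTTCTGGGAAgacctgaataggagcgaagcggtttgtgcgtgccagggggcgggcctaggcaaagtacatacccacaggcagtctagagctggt
Tnfsf10: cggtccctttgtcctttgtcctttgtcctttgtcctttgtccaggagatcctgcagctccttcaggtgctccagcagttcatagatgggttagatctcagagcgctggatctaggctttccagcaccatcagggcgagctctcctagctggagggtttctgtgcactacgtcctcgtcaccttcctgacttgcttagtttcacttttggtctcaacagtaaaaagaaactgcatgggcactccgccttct
Tnfrsf13b: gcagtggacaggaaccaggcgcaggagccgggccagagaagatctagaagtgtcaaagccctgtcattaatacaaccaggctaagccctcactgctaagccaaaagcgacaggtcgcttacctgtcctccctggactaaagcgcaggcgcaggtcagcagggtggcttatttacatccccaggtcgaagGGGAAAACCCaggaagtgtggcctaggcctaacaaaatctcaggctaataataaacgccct

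The Tnfrsf9 window held TTCCAAGAA at position -136, GGGATTTCCC at -42 and TGAGTCA at -15, counted from the start site, while the other annotated Tnfrsf9 window held none of the searched letters. The Fas window held TGAGTCA at -211 and TTCTGGGAA at -93. That of Tnfrsf13b held GGGAAAACCC at -61, and that of Tnfsf10 held none. Over the members, the NF-kB letters occurred in 8 of 35 windows (22.9%), beside 17.6% of all 32851 windows of this length. AP-1 letters occurred in 6 of 35 (17.1%), beside 6.75%, and STAT letters in 8 of 35 (22.9%), beside 7.02%. PU.1 letters occurred in 1 of 35, that of Tnfsf18 (2.86%, beside 2.44%). The cyclic AMP letters occurred in 0 of 35, beside 1.55%. The NF-kB letters were found before the called members Tnfrsf9, which fell, and Tnfrsf13b, which rose, and before the uncalled Ltb, Tnfrsf14, Tnfrsf25, Tnfrsf8, Tnfsf11 and Tnfsf14. STAT letters were found before the called Tnfrsf9 and Fas, which fell, and Tnfrsf1a, which rose. They were also found before the uncalled Lta, Ltb, Tnfrsf18, Tnfrsf1b and Tnfrsf25. AP-1 letters were found before Tnfrsf9 and Fas and before the uncalled Tnfrsf8, Tnfsf13, Tnfsf13b and Tnfsf14. The windows of the called Tnfrsf11a, Tnfrsf21 and Tnfrsf13c held none of the searched letters. A match describes the letters only.

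Tnfrsf13b, Tnfrsf13c and Tnfrsf17 are the receptors of BAFF (Tnfsf13b) and APRIL (Tnfsf13), cytokines that sustain B and plasma cells, and they did not move together. Tnfrsf13b, or TACI, measured 10.4, 12.2 and 12.5 in KC_EV and 14.9, 19.1 and 18.9 CPM in KC_Epo. All KC_Epo libraries were higher, and it rose 1.5-fold (0.59 ± 0.14, adjusted p = 0.0065). Tnfrsf13c, the BAFF receptor of B cells, measured 5.61, 4.99 and 4.57 in KC_EV and 1.64, 3.31 and 2.64 CPM in KC_Epo. All KC_Epo libraries were lower, and it fell 2.0-fold (-0.998 ± 0.28, adjusted p = 0.0179). The Tnfrsf13c call was lost without KC_EV 1 (-0.91, adjusted p = 0.0642), KC_EV 2 (-1.01, adjusted p = 0.0526) or KC_Epo 3 (-1.02, adjusted p = 0.0573), and without KC_EV 1 and KC_Epo 1 together (-0.68, adjusted p = 0.0697). Tnfrsf17, or BCMA, a receptor of plasma cells, had 6, 11 and 8 counts in KC_EV and 36, 16 and 9 counts in KC_Epo (1.43 ± 0.62, adjusted p = 0.0985).

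B and plasma cell markers had the following levels beside these receptors. Of the B cell genes, Ms4a1 measured 14.4, 16.0 and 12.5 in KC_EV and 5.56, 12 and 9.75 CPM in KC_Epo (log2 fold change -0.65, adjusted p = 0.0834). Of the plasma cell genes, Jchain measured 17.0, 14.9 and 14.7 in KC_EV and 108.2, 50.2 and 69.3 CPM in KC_Epo (2.29, adjusted p = 0.00769). Over the whole list of 9 tested markers, 2 were higher (Jchain and Mzb1) and 1 was lower (Fcrla). Their sum was 190.2 to 216.4 CPM in KC_EV and 214.5 to 226.9 CPM in KC_Epo. The part of B and plasma cells in the receptor values was not tested.

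**Figure D4:**
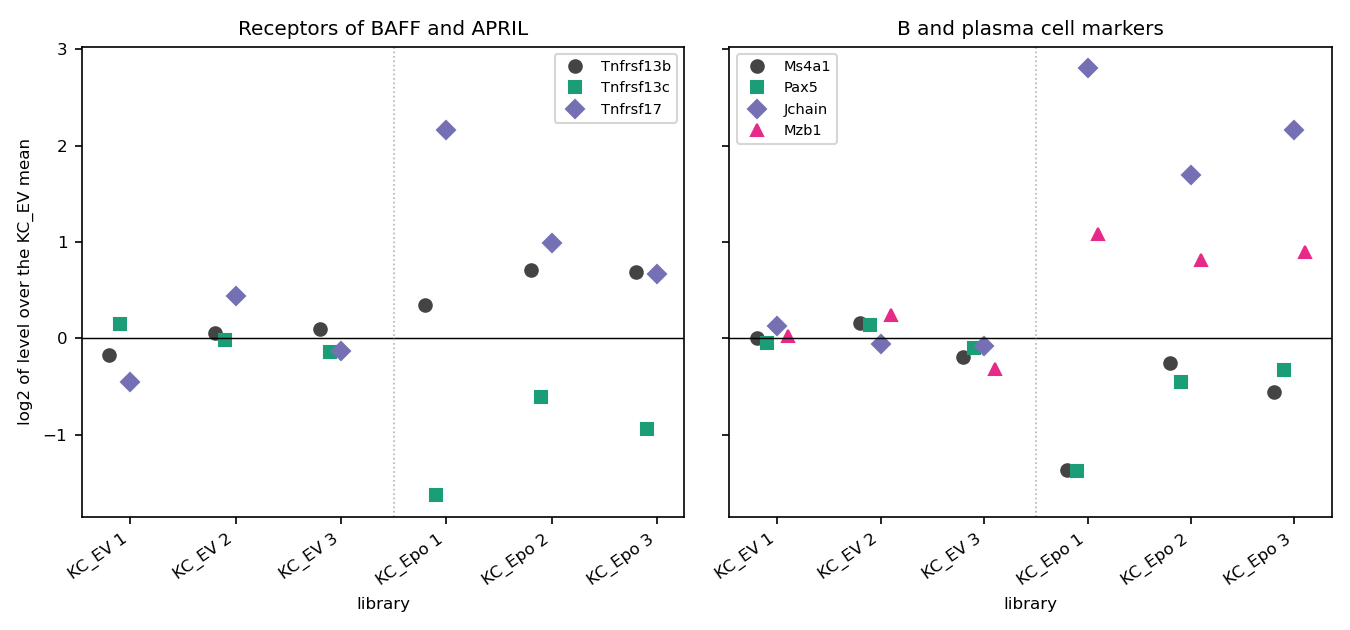
Log2 of the level of each gene over its KC_EV mean, by library; the left panel shows the 3 receptors of BAFF and APRIL, the right panel 4 B and plasma cell markers. In the KC_Epo libraries Tnfrsf13b and Tnfrsf17 lie above 0 and Tnfrsf13c below it, while Jchain and Mzb1 lie above 0 and Ms4a1 and Pax5 below it. Neither Ms4a1 (adjusted p = 0.0834) nor Pax5 (adjusted p = 0.0864) passed the test. The other markers of the 9 tested, among them the called Fcrla, are not drawn.

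The 2 ligands of this group were low and lay on opposite sides. Tnfsf13 had 59, 73 and 85 counts in KC_EV and 100, 110 and 77 in KC_Epo, and in CPM the KC_Epo libraries were all higher (0.61 ± 0.27, adjusted p = 0.1). Tnfsf13b had 48, 43 and 65 counts in KC_EV and 42, 19 and 19 in KC_Epo, and in CPM the KC_Epo libraries were all lower (-0.76 ± 0.42, adjusted p = 0.192). Neither passed the test. The ratio of Tnfsf13b to Tnfsf13 counts was 0.814, 0.589 and 0.765 in KC_EV and 0.42, 0.173 and 0.247 in KC_Epo. By an exact permutation test, two-sided, this difference of -1.45 on the log2 scale had p = 0.1, the smallest that 3 against 3 libraries allow, and an adjusted p of 0.167 over 5 ratios.

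Tnfrsf1b, Ltbr and Tnfrsf14 were abundant receptors that did not pass the test. Tnfrsf1b, the TNF receptor that signals through TRAF2, measured 271, 262 and 272 in KC_EV and 244, 289.9 and 262 CPM in KC_Epo (log2 fold change -0.01 ± 0.08, adjusted p = 0.896). The KC_EV libraries lay within the range of the KC_Epo libraries. Ltbr, which activates the alternative NF-kB route, measured 96.4, 107 and 103 in KC_EV and 103.7, 122.6 and 122.5 CPM in KC_Epo (0.18 ± 0.08, adjusted p = 0.105). It passed the test without KC_Epo 1 (0.27, adjusted p = 0.0132), and without KC_EV 1 and KC_Epo 1 together (0.21, adjusted p = 0.0156). Tnfrsf14, a receptor of LIGHT and lymphotoxin, measured 54.2, 46.1 and 55.5 in KC_EV and 33.9, 48.1 and 47.9 CPM in KC_Epo, with KC_Epo 1 lowest (-0.26 ± 0.14, adjusted p = 0.177).

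The other tested TRAF-binding receptors were near or under 5 CPM, with overlapping groups. Tnfrsf4, a costimulatory receptor of T cells (92 to 169 counts a library), had a log2 fold change of -0.07 ± 0.21 (adjusted p = 0.829) and Tnfrsf12a, the TWEAK receptor (98 to 180 counts), one of -0.19 ± 0.22 (adjusted p = 0.535). Cd27, the T and B cell receptor for Cd70 (65 to 132 counts), had one of -0.20 ± 0.27 (adjusted p = 0.603). For Tnfrsf18, which tunes regulatory T cells (30 to 94 counts), it was -0.64 ± 0.38 (adjusted p = 0.218), and for Tnfrsf8, a receptor of activated lymphocytes (2 to 26 counts), -0.47 ± 0.69 (adjusted p = 0.636). The sign for Tnfrsf4 and Tnfrsf8 changed when some single libraries were left out. Tnfrsf19 had 26 counts over the KC_EV libraries, 20 of them in KC_EV 2, and 16 over the KC_Epo libraries.

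Among the decoy and soluble receptors, 1 of 4 was higher (25%, beside 16.9% of all genes) and 1 was lower (25%, beside 15.4%), both from a cluster of neighbouring genes in the order Tnfrsf26, Tnfrsf22 and Tnfrsf23. Tnfrsf26 measured 18.8, 18.2 and 17.8 in KC_EV and 24.6, 29.5 and 25.1 CPM in KC_Epo. All KC_Epo libraries were higher, and it rose 1.45-fold (0.53 ± 0.11, adjusted p = 0.00252). Tnfrsf22, a TRAIL-binding decoy receptor, measured 10.1, 10.4 and 9.74 in KC_EV and 5.66, 5.63 and 6.47 CPM in KC_Epo. All KC_Epo libraries were lower, and it fell 1.71-fold (-0.77 ± 0.16, adjusted p = 0.00292). Direct neighbours thus changed in opposite directions.

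Tnfrsf23, the other TRAIL-binding decoy, measured 7.75, 6.01 and 7.49 in KC_EV and 11.8, 11.3 and 6.65 CPM in KC_Epo. KC_Epo 3 lay among the KC_EV libraries and the other two above them. Its log2 fold change was 0.49 ± 0.22 (adjusted p = 0.104), and it passed the test without KC_Epo 3 (0.71, adjusted p = 0.0239). Tnfrsf22 and Tnfrsf23 are near-identical in part, since 18.0% of the 50-base stretches of Tnfrsf23 transcripts also occur in Tnfrsf22. Of the stretches of Tnfrsf22, 27.4% occur in other genes, Tnfrsf23 among them. The counting could have split reads between Tnfrsf22 and Tnfrsf23, so both values are uncertain. Tnfrsf11b, osteoprotegerin, the soluble decoy for RANKL, had 98 counts over the KC_EV libraries, 55 of them in KC_EV 2, and 42 over the KC_Epo libraries (-1.04 ± 0.62, adjusted p = 0.22). Of the stellate cell and fibroblast markers, 4 of 10 were lower and 0 higher, and their part in the Tnfrsf11b values was not tested.

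Divided by exon length, levels can be compared between members. In KC_EV the highest was Tnfrsf1a at 111 ± 2.30 CPM per kb (SD, n = 3), followed by Tnfrsf1b at 70.3 ± 1.36, Ltbr at 48.5 ± 2.66, Tnfrsf14 at 40 ± 3.92 and Tnfrsf21 at 22.7 ± 1.59. Each of these neighbours was separated by more than its SD. Tnfsf12 led the member ligands at 16.4 ± 1.52 CPM per kb, a value made uncertain by Tnfsfm13. Ltb at 8.31 ± 1.60 and Tnfsf10 at 7.03 ± 0.482 came next and lay within their spread of each other. Tnf, outside the symbol rule, stood higher, at 89.5 ± 5.86 in KC_EV and 29.4 ± 0.84 CPM per kb in KC_Epo. In KC_Epo, Tnfrsf1a at 129.9 ± 10.4 and Tnfrsf1b at 69.5 ± 6.04 CPM per kb stood further apart, and Tnfrsf14 at 33.4 ± 6.30 and Tnfrsf21 at 30.9 ± 2.91 lay within their spread of each other.

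Ratios of counts from the same library cancel the library scaling, and 5 were computed. Tnfrsf1b to Tnfrsf1a was 1.16, 1.09 and 1.11 in KC_EV and 0.957, 0.970 and 0.916 in KC_Epo. The groups did not overlap, with Tnfrsf1b the more counted of the pair in each KC_EV library and Tnfrsf1a in each KC_Epo library (log2 difference -0.24, exact permutation p = 0.1, adjusted p = 0.167). The ratio of Tnfsf10 to Tnfrsf10b had a log2 difference of -1.49 with the same p, and of -0.90 without KC_EV 3. For Tnfsf12 to Tnfrsf12a the difference was -0.17, and for Fasl to Fas it was 0.39, each with an exact permutation p of 0.6. With 1 library left out, these ranged from -0.38 (without KC_Epo 1) to -0.053 (without KC_Epo 3) and from 0.057 (without KC_Epo 2) to 0.92 (without KC_Epo 1).

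Of the family genes outside the symbol rule, 5 were tested. Of these, 1 was higher (20%, beside 16.9% of all genes) and 2 were lower (40%, beside 15.4%). Tnf, the founding cytokine of the family, measured 158, 139.6 and 143 in KC_EV and 46.7, 48.5 and 49.4 CPM in KC_Epo, all lower (log2 fold change -1.605 ± 0.07, adjusted p = 7.36e-08). It lies between Ltb and Lta in the genome, neither of which passed the test. Relt, a TRAF-binding receptor, measured 41.2, 44.1 and 50.1 in KC_EV and 95.4, 113.2 and 101.3 CPM in KC_Epo, all higher (1.20 ± 0.09, adjusted p = 2.89e-06). Cd40, a receptor for T cell help, measured 44.1, 44.6 and 48.9 in KC_EV and 31.8, 38.4 and 37.4 CPM in KC_Epo, all lower (-0.36 ± 0.09, adjusted p = 0.0115), and its call was lost without KC_EV 3 (-0.30, adjusted p = 0.0617). Cd40lg (-0.95, adjusted p = 0.402) and Eda2r (-0.20, adjusted p = 0.828) did not pass, and Eda was not tested.

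The receptors' signalling genes were read from lists of 60 genes including these 6. Of 59 tested, 14 were higher (23.7%, beside 16.9% of all genes) and 18 were lower (30.5%, beside 15.4%), with a median log2 fold change of -0.04. Leaving out KC_EV 2 brought the higher count to 9 (15.3%, beside 11.7% of all genes in the same fit). Of 10 death domain signalling genes, 6 were higher (60%, beside 16.9% of all genes) and 0 lower, beside 15.4%, with a median of 0.29. Mlkl, the executor of necroptosis, rose from 53.8 ± 2.56 to 90.1 ± 7.03 CPM (0.74 ± 0.08, adjusted p = 3.57e-05). Its activating kinase Ripk3 rose by 0.41 ± 0.07 (adjusted p = 0.000651), and Casp8, the initiator caspase that restrains them, by 0.41 ± 0.08 (adjusted p = 0.00218).

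Of 12 ubiquitin editing genes, 0 were higher, beside 16.9% of all genes, and 6 were lower (50%, beside 15.4%). They include Tnfaip3, or A20, a brake on NF-kB (-0.51 ± 0.07), and the ubiquitin ligases Birc2 (-0.59 ± 0.09) and Birc3 (-0.45 ± 0.09), which restrain the alternative route. Of 18 NF-kB kinases and subunits, 2 were higher (11.1%, beside 16.9% of all genes) and 6 were lower (33.3%, beside 15.4%). The lower ones include the subunits Rel (-0.69 ± 0.08), Nfkb1 (-0.57 ± 0.06) and Relb (-0.53 ± 0.08). Of 6 TRAF adaptors, 0 were higher, beside 16.9% of all genes, and 2 lower (33.3%, beside 15.4%). Traf1, itself an NF-kB target, had a log2 fold change of -1.17 ± 0.26 (adjusted p = 0.0124). Traf2, which joins Birc2 and Birc3 to the receptors, had one of -0.24 ± 0.08 (adjusted p = 0.0404). The Traf2 call was lost without KC_EV 1 (adjusted p = 0.0572), KC_EV 2 (adjusted p = 0.0976), KC_EV 3 (adjusted p = 0.129), KC_Epo 2 (adjusted p = 0.134) or KC_Epo 3 (adjusted p = 0.167), and also with DESeq2 (adjusted p = 0.0667) or no filter (adjusted p = 0.0538). Traf4 did not pass (-0.61 ± 0.23, adjusted p = 0.0587), but did with upper-quartile factors (-0.67, adjusted p = 0.0406) or library sizes only (-0.77, adjusted p = 0.0197).

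The list on shedding of ligands and receptors holds 8 genes, proteases, their partners and 1 inhibitor. Of these, 5 were higher (62.5%, beside 16.9% of all genes) and 2 lower (25%, beside 15.4%). The lower ones were the inhibitor Timp3 and the Adam17 partner Rhbdf1. Rhbdf1 lay near the threshold (-0.46 ± 0.16, adjusted p = 0.0478). It measured 13.18, 21.36 and 19.15 in KC_EV and 12.92, 13.23 and 12.94 CPM in KC_Epo, so the groups overlapped. The protease Adam10 rose by 0.61 ± 0.08, the convertase Furin, which cleaves TWEAK, BAFF and APRIL, by 0.58 ± 0.07, and Rhbdf2, a partner of the TNF-cleaving protease Adam17, by 0.33 ± 0.07 on the log2 scale. Adam17 itself did not pass the test (0.175 ± 0.066, adjusted p = 0.0604). Timp3, an inhibitor of Adam10 and Adam17, fell (-1.66 ± 0.25, adjusted p = 0.00609). Timp3, Rhbdf1 and Adam17 were named after their values were seen. Timp3 levels were 77.0, 86.2 and 79.7 in KC_EV and 32.5, 17.0 and 27.3 CPM in KC_Epo, and the part of endothelial cells in them was not tested.

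**Figure D5:**
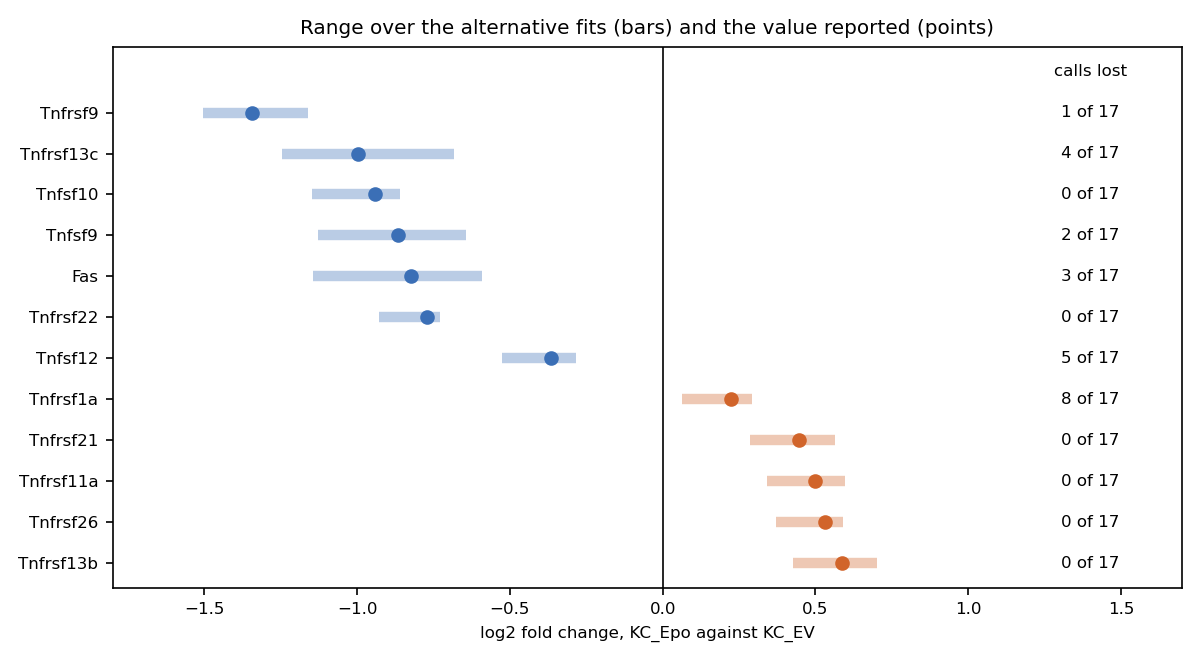
Log2 fold change of KC_Epo against KC_EV for the 12 called members; points are the values reported, bars span the 17 alternative fits, and the right column counts the fits in which the call was lost. No bar crosses 0; 6 of the 12 members kept their call in every alternative fit, and Tnfrsf1a lost its call in 8.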

How the data were processed

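The data are 6 RNA-seq libraries from sorted Kupffer cells, 3 KC_EV and 3 KC_Epo. Per the labels, polyA RNA was extracted with RNEasy Plus kits and sequenced from TruSeq stranded libraries. The authors deposited raw counts per gene. Per the submitters' processing notes, the build was GRCm39 and the tools included STAR 2.7.3a, HTSeq 0.11.2, FastQC 0.11.8 and Bowtie2 2.5.1, listed without role or order; the sources used here do not give strand and overlap settings. Groups come from the sample titles.

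Counts of all genes were fitted with edgeR 4.0.16 in R 4.3.3 (TMM factors, filterByExpr with a minimum count of 10, robust quasi-likelihood F test, two-sided, Benjamini-Hochberg adjustment over 13120 genes, threshold 0.05). The SE is the log2 fold change divided by the root of F. DESeq2 1.42.0, limma 3.58.1 (voom), other scalings and filters, a replicate block and fits without each library were alternatives. On simulated data of 13205 genes, the fit recovered 40.0% of genes changed 1.5-fold, 90.0% of those changed 2.0-fold, and called 0.0384% of unchanged genes. The simulation gave every gene the same dispersion and all libraries the same mean profile apart from the changed genes. These rates therefore check the code and need not hold for the real libraries. Library totals of 23201076 to 33280754 counts set the precision. Of the table's 15458 rows, 489 held under 10 counts. No 2 libraries of a group agreed within sampling noise (chi-square per gene at least 6.14).

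Exon lengths, overlaps, neighbours and shared stretches of 50 bases come from GENCODE vM21 (GRCm38), and promoters from RefSeq (GRCm38.p6). Because the counts use GRCm39, no gene coordinates are given beyond the promoter windows. Members past the test or at 5 CPM in either group were described by library, the others by counts or ranges; of the signalling lists, the family genes outside the rule and up to 3 genes per list with the smallest adjusted p were named. The members and lists were chosen with earlier results of these data known.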

Additional observations from a re-analysis of the deposited data

How the results depend on the processing

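Of the 12 called members, 6 (Tnfsf10, Tnfrsf22, Tnfrsf21, Tnfrsf11a, Tnfrsf26 and Tnfrsf13b) kept their direction and call under all 16 alternative fits and 1 added after seeing the data, which left out KC_EV 1 and KC_Epo 1 together; of the 22 uncalled members, 13 kept direction and side in every fit that tested them, which for Lta, Ngfr, Tnfrsf11b, Tnfrsf17 and Tnfsf18 leaves out the filter at 1 CPM in 3 libraries. With 1 library left out, the called members numbered 6 to 13 (17.1% to 37.1% of those tested). Higher members numbered 4 to 6 (11.1% to 17.1%) and lower members 2 to 8 (5.71% to 22.2%). All called genes numbered 2728 to 4557 (20.3% to 34.1%). Among all genes, 1477 to 2410 were higher (11% to 18%) and 1251 to 2147 lower (9.31% to 16%). Signalling genes called higher numbered 9 to 14 (15.3% to 23.7%). With library sizes only, 1193 genes were higher (9.09%) and 3616 lower (27.6%), in place of 2219 and 2015. In that fit 6 signalling genes were higher (10.2%), and the members numbered 4 higher (11.8%) and 10 lower (29.4%). The TRAF-binding receptors' summed level then had a log2 ratio of -0.091 in place of 0.068. Upper-quartile factors gave 1724 genes higher and 2527 lower. With library sizes only, Ltb (-0.77, adjusted p = 0.0337), Tnfrsf14 (-0.42, adjusted p = 0.0297) and Tnfsf14 (-1.88, adjusted p = 0.0419) passed, as did Tnfsf14 with limma-voom (-1.99, adjusted p = 0.0484), while Rhbdf2 did not (0.17, adjusted p = 0.0606).

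Directions changed for uncalled genes: without 1 library, Tnfrsf1b ranged from -0.076 to 0.048, Tnfrsf4 from -0.19 to 0.01, Tnfrsf8 from -0.78 to 0.009, Tnfsf8 from -0.20 to 0.73, Cd40lg from -1.70 to 0.03 and Eda2r from -0.92 to 0.26. Tnfrsf1b turned to higher in KC_Epo without KC_Epo 1 or KC_Epo 3, Tnfrsf4 without KC_EV 2 or KC_Epo 3, Tnfrsf8 and Cd40lg without KC_EV 3, and Eda2r without KC_EV 2 or KC_Epo 2, while Tnfsf8 turned to lower without KC_EV 1 or KC_Epo 1. Without KC_EV 1 and KC_Epo 1 together, Tnfrsf1b was at 0.04 and Tnfsf8 at -0.52. The cause of these changes was not tested.

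The replicate numbers gave no sign of pairing: deviations of same-numbered libraries correlated at -0.12, -0.18 and -0.03, and no library correlated best with its own number. With so few libraries in each group, this check cannot exclude pairing. With a replicate block, 11 members were called (32.4%) and 3358 genes in all (25.6%). Of the members, 4 were higher (11.8%, beside 13.7% of all genes) and 7 lower (20.6%, beside 11.9%). Tnfsf12 (-0.37, adjusted p = 0.0552) and Tnfrsf1a (0.22, adjusted p = 0.067) then missed the threshold, as did Traf1 (-1.165, adjusted p = 0.067) and Traf2 (-0.25, adjusted p = 0.0721), and Ltb (-0.64, adjusted p = 0.033) passed it. The median SE of the log2 fold change was 0.12 for members at 5 CPM or more and 0.44 for those below.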

Other observations

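Several members lie beside each other in the genome, and their values are set side by side here. In the run Tnfsf4, Tnfsf18 and Fasl, the log2 fold change was 1.87 for Tnfsf18 and -0.52 for Fasl, neither past the test, and Tnfsf4 was not tested. Tnfsf13 and Tnfsf12 had 0.61, not past the test, and -0.37. Tnfrsf1b, at -0.01, lies beside Tnfrsf8, at -0.47, neither past the test. Opposite-strand genes cover 25.5% of the exon length of Tnfrsf18, 8.76% of that of Tnfsf9 and 11.1% of that of Tnfrsf23, and the sources used here do not say whether the counting used the strand.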
